A study of Mus musculus with 22 samples.

Results

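Mouse duodenal organoids were exposed to cold atmospheric plasma (CAP), an ionised helium jet that loads the culture medium with reactive oxygen and nitrogen species. The RNA of 40 genes was followed, drawn from the antioxidant response of the transcription factor NRF2 and from the glutathione and thioredoxin systems. A place on this list does not make a gene a target of NRF2. The 40 genes were chosen by name from 52636 genes in the deposited table, with earlier results of these data known. They comprised 3 regulators, 5 inducible enzymes, 4 genes of glutathione synthesis and recycling, 5 of the thioredoxin system, 5 of NADPH supply, 12 glutathione transferases, 3 efflux transporters and 3 genes of thiol metabolism. All 40 passed the filter on low values in each of the 12 comparisons made, so none was lost to low expression.

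The series held 22 RNA-seq libraries from organoid lines of wild-type adult CD1 mice, an outbred stock, each line grown from the crypts of 1 mouse. Untreated organoids were sequenced from 4 lines (n = 4), and each of 6 treatments from lines 1, 2 and 4 (n = 3), so that 1 line stands for 1 animal and line 3 is present only untreated. For direct CAP the jet was aimed at the organoids' own well on day 1 after replating, with a change to fresh medium after 30 min or after 24 h. For indirect CAP untouched organoids received medium from another plasma-treated culture, and for PAM (plasma-activated medium) they received medium treated without any organoids, starting on day 1 or on day 2. The sample labels give the last 4 groups as 30 minutes and 24 hours, and their reading as day 1 and day 2 follows the headings of the study's own tables. Per the study the endpoint was day 3, when the transcriptomes were analysed. Groups exposed for 24 h from day 1 had fresh medium from day 2, and the 30 min group from day 1. Day 2 groups received medium treated on day 1 and kept it to the endpoint. Start day, time in fresh medium and age of the treated medium therefore changed together and cannot be told apart. All groups, untreated included, grew in medium with EGF, Noggin, R-spondin 1 and N-acetyl cysteine, a cysteine donor that itself feeds glutathione synthesis. Lines are numbered here by replicate, and the labels call them CD1, WT2, 1 and 2 in that order. These numbers are not those of the study's own list of lines. The passage in the labels differed between lines (12, 14, 4 and 4 for lines 1 to 4), so passage and line cannot be told apart.

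NRF2, encoded by Nfe2l2, is held at a low level by KEAP1, which marks it for degradation. Oxidants and electrophiles modify cysteines of KEAP1, NRF2 then accumulates, enters the nucleus, pairs with small MAF proteins and binds antioxidant response elements beside its target genes. Those targets make and recycle glutathione and thioredoxin, supply the NADPH that both systems consume, couple glutathione to toxic compounds and pump the conjugates out of the cell. Because NRF2 is governed mainly through the stability of the protein, its RNA level need not follow its activity. The duodenal epithelium is exposed to diet-derived electrophiles and carries a high content of glutathione transferases.

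The antioxidant response element has the core TGACNNNGC, and these letters were searched on both strands in RefSeq windows (GRCm38.p6) running from 250 bases before to 50 bases after each annotated start. Windows were used for 33 of the 40 genes, and 10 of them (30.3%) held the core, against 14.0% of all 27025 genes with a window. The 10 stretches are shown because they are the members in which the letters lie close to the start. Each is written on the gene's own strand, with the core in capitals (GCNNNGTCA where it reads on the opposite strand) and 10 bases on each side.
Nfe2l2 (chr2:75704885-75704913, minus strand): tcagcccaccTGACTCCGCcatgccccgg
Srxn1 (chr2:152105542-152105570, plus strand): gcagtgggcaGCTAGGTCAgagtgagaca
Gclm (chr3:122245413-122245441, plus strand): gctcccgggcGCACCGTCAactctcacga
Txnrd1 (chr10:82859104-82859132, plus strand): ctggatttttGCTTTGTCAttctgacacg
G6pdx (chrX:74428919-74428947, minus strand): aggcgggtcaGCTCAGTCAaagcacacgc
Pgd (chr4:149166061-149166089, minus strand): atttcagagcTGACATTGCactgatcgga
Me1 (chr9:86695902-86695930, minus strand): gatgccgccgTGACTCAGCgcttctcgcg
Gsta3 (chr1:21240454-21240482, plus strand): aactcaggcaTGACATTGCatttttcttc
Mgst1 (chr6:138140461-138140489, plus strand): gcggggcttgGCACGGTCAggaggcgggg
Abcc2 (chr19:43782200-43782228, plus strand): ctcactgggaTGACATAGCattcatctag
The core began between 240 bases before the start (Nfe2l2) and 29 bases after it (Srxn1), and in Me1 it spanned the start itself. A match says only that these letters are present, and none of the 7 genes without a window (Gclc, Gsr, Gsta4, Abcc1, Abcc3, Ggh and Vnn1) was searched.

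Read depth was close to even, between 19.92 and 28.68 M reads per library (estimated from the spacing of low values), and no pair of libraries of a group were copies of each other. The deposited values are read counts scaled to nearly the same total in each library, 20007540 to 20016513, and are called scaled counts here. The labels name stem cells, and stem cell markers (Lgr5, Olfm4, Ascl2, Smoc2, Axin2) were present, but enterocyte markers were higher still, with a summed level of 98664 to 118389 scaled counts in the untreated libraries against 32557 to 38876 for the stem cell markers. The summed stem cell markers stood at 20274 to 32015 after direct CAP for 30 min, 5313 to 10861 after direct CAP for 24 h, 5936 to 15040 in indirect CAP day 1, 1306 to 2640 in PAM day 1, 2703 to 3953 in indirect CAP day 2 and 757 to 2747 in PAM day 2. Enterocyte markers stood at 73238 to 182388 over the treated libraries. Paneth cell markers summed to 20896 to 29593 untreated and 3648 to 15499 in PAM day 1. Cycling markers summed to 16084 to 21418 untreated and 3349 to 6515 in PAM day 2. Goblet cell markers summed to 71748 to 129154 untreated and 15917 to 43328 in PAM day 2, and overlapped the untreated range in the other 5 treated groups. Enteroendocrine markers summed to 1453 to 2511 untreated and 1230 to 7915 over the groups exposed for 24 h. Each sum follows its most abundant genes and the lists differ in length, so a sum gives no share of cells. Fcgbp alone had a mean of 76797 in the untreated goblet mean of 93476. Of the enteroendocrine genes Chga and Chgb were higher on average in the groups exposed for 24 h from day 1, and Neurod1 and Gcg were lower. The non-epithelial list summed to 43 to 109, and of its genes Col1a2 and Adgre1 were at 0 in 11 and 12 of the 22 libraries. In RNA from whole organoids, fewer cells of a type and less RNA per cell cannot be told apart, and the part of this change of cell makeup in the results below was not tested.

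The first comparison set the 3 routes with 24 h of exposure from day 1, pooled, against untreated organoids. Its 9 treated libraries came from 3 lines, each present once per route, and the fit counted them as separate libraries. Of the 40 genes, 25 were higher and 15 lower in the fit. The 3 genes grouped under thiol metabolism, the glutathione transferase Gstk1 and the transporter Abcc3 rose most, while the membrane transferase Mgst1 fell. Past an adjusted p of 0.01 and a doubling or halving (log2 fold change of 1 or more), 5 genes rose (Gstk1, Abcc3, Ethe1, Ggh, Vnn1) and 1 fell (Mgst1), which is 15% of the members where 6.34% of the 18490 genes tested passed. When an adjusted p under 0.05 alone was asked for, 17 genes rose and 4 fell, 52.5% of the members against 33.5% of all genes. The genes were chosen with earlier results known, and the study itself names Gstk1, Ethe1, Ggh and Vnn1 from these libraries. These shares are therefore no independent evidence of a direction. The median log2 fold change was 0.27 over the members and −0.05 over all genes. For 14 genes (35%) the lowest of the 9 treated libraries exceeded the highest of the 4 untreated ones, against 7.16% of all genes, and for 3 (7.5%) the reverse held, against 10.5% of all genes. All these tests were limma's on log2 of the scaled count plus 1, adjusted over all genes, and fold changes are on that scale. Comparisons with untreated organoids share the same 4 untreated libraries and are therefore not independent of each other.

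These counts leaned on the untreated libraries. Without untreated line 1 a single member stayed past the threshold (Ggh, log2 fold change 1.09, adjusted p = 0.00975), and without untreated line 2 there were 3 (Abcc3, Ethe1 and Ggh). Over all genes the number past the threshold fell as well, from 1173 to 651 and 730. Untreated line 1 was the lowest of all 22 libraries for 11 of the 40 genes. This was not counted over all genes, so whether it is particular to the members cannot be told. The untreated libraries labelled lines 1 and 2 also resembled the treated libraries of the other's line more than their own (median correlation of residuals 0.42 against 0.13), whereas untreated line 4 resembled its own (0.60). Fits below with organoid line as a block pair libraries by these labels, so those against untreated organoids carry this doubt. Without untreated lines 1 and 2 no member and 148 genes in all were past the threshold. The 6 kept their directions, with log2 fold changes from 0.67 (Vnn1) to 1.1 (Ethe1) for the 5 higher genes. Mgst1 stood at −0.93, and adjusted p ran from 0.0127 to 0.122 over the 6.

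**Figure D1:**
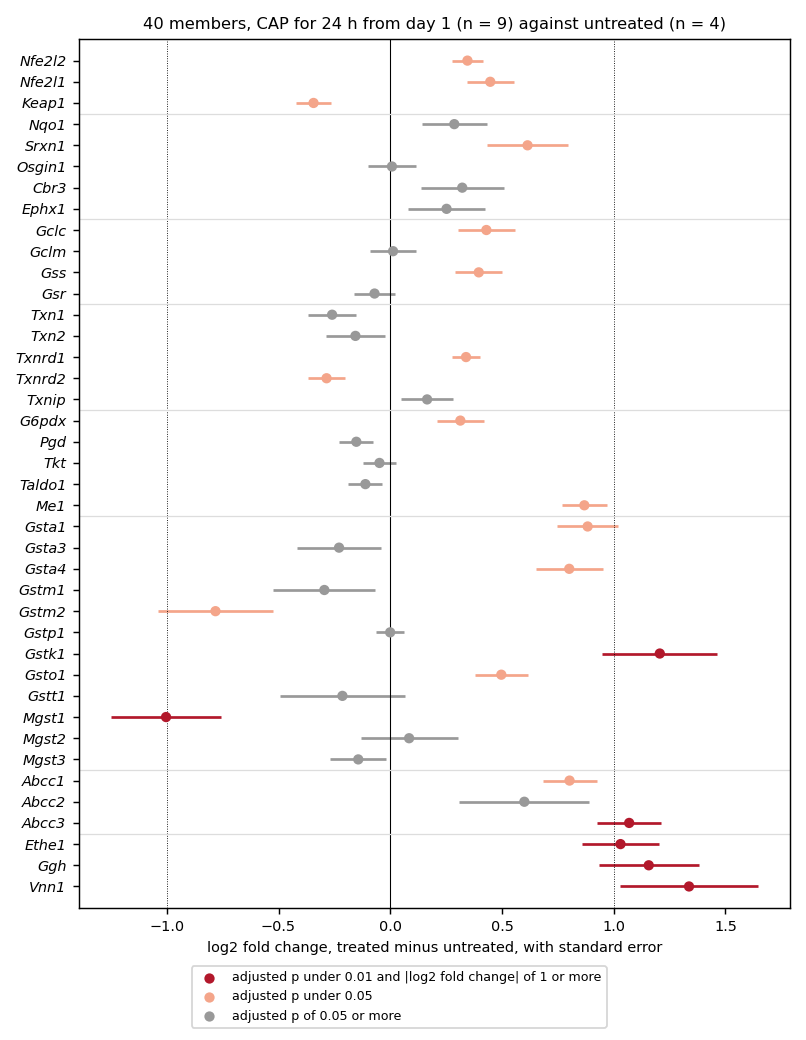
Log2 fold change (horizontal axis, with its standard error) of each of the 40 genes, grouped by role, for 9 libraries exposed for 24 h from day 1 against 4 untreated libraries. The 3 thiol metabolism genes and the 3 efflux transporters lie above 0, while the glutathione transferases spread from −1.0 (Mgst1) to 1.21 (Gstk1).

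Among the regulators, Nfe2l2 and its relative Nfe2l1 rose and Keap1 fell, each by less than a doubling or halving. Nfe2l2 stood at 6520, 6987, 6773 and 6429 scaled counts in untreated lines 1 to 4, and values below follow the same order (lines 1, 2 and 4 in treated groups). It reached 8409, 7712 and 8413 after direct CAP for 30 min, 9083, 8927 and 7676 after direct CAP for 24 h, 8892, 8754 and 8621 in indirect CAP day 1 and 7919, 8837 and 7752 in PAM day 1. All 12 of these libraries were above every untreated one. The change over the 9 libraries exposed for 24 h was 0.35 ± 0.07 (log2, SE; adjusted p = 0.00207). Exposure from day 2 gave another picture, with 6283, 6464 and 5621 in indirect CAP and 6071, 5489 and 3752 in PAM, where the PAM libraries were all below the untreated ones but the test did not pass (−0.42, adjusted p = 0.0593).

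Keap1, the adaptor that leads NRF2 to the proteasome, stood at 1641, 1573, 1591 and 1779 untreated. It was 1522, 1414 and 1609 after direct CAP for 30 min, 1274, 1363 and 1209 after direct CAP for 24 h, 1396, 1284 and 1526 in indirect CAP day 1 and 1213, 1143 and 1293 in PAM day 1. Every library of the 3 groups exposed for 24 h from day 1 lay below the lowest untreated value, and the fall was 0.34 ± 0.08 on the log2 scale (adjusted p = 0.00442). With exposure from day 2 it was 1205, 1326 and 1132 in indirect CAP (−0.43, adjusted p = 0.0036) and 1203, 1132 and 979 in PAM (−0.58, adjusted p = 0.00269). Of the Keap1 exons, 10.9% overlap another annotated gene, and whether the counting used strand is not given in the sources used here. Nfe2l1, which codes for a related factor that controls proteasome genes, rose in all 5 groups exposed for 24 h at an adjusted p under 0.05, from 3207 ± 216 (SD, n = 4) untreated to 4405 ± 657 (n = 9) over the day 1 groups. Its difference was 0.94 in indirect CAP day 2 and 0.77 in PAM day 2, neither of which passed against the same route at day 1 (adjusted p = 0.106 and 0.378), and it did not pass after direct CAP for 30 min (0.05, adjusted p = 0.811).

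Of the 5 inducible enzymes only Srxn1 rose over 9 against 4 libraries. Nqo1, a quinone reductase widely used as a readout of NRF2, stood at 1899, 3644, 3273 and 2714 untreated, with line 1 well below the other lines. It was 3707, 2508 and 3730 after direct CAP for 30 min, 3902, 3145 and 4165 after direct CAP for 24 h, 3423, 2831 and 3097 in indirect CAP day 1, 3713, 3261 and 3404 in PAM day 1, 3821, 3156 and 2956 in indirect CAP day 2 and 4827, 3896 and 2898 in PAM day 2. The groups overlapped throughout, and the 9 against 4 difference of 0.29 ± 0.14 did not pass (adjusted p = 0.141). Srxn1, sulfiredoxin, which repairs over-oxidised peroxiredoxins, was at 1851, 2076, 2027 and 1321 untreated and was the inducible enzyme with the largest difference. Its values were 2200, 2707 and 2134 after direct CAP for 30 min, 2863, 3632 and 2081 after direct CAP for 24 h, 2628, 3512 and 2098 in indirect CAP day 1, 2480, 3843 and 2196 in PAM day 1, 2579, 4424 and 1978 in indirect CAP day 2 and 3849, 6106 and 1799 in PAM day 2. All 9 libraries exposed for 24 h from day 1 lay above all untreated ones (0.61 ± 0.18, adjusted p = 0.0184), and line 2 was the highest and line 4 the lowest in each of the 6 treated groups. The other 3 inducible enzymes did not pass in that comparison: Ephx1, the microsomal epoxide hydrolase, at 0.25, Cbr3, a carbonyl reductase, at 0.32 and Osgin1, an oxidative stress growth inhibitor, at 0.01. By group, Cbr3 was higher after direct CAP for 24 h (0.63, adjusted p = 0.0369) and Osgin1 in PAM day 2 (0.64, adjusted p = 0.0307).

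Of the glutathione genes, those coding for the catalytic subunit of the rate-limiting ligase (Gclc) and for glutathione synthetase (Gss) rose, and those for its modifier subunit (Gclm) and for the reductase that recycles oxidised glutathione (Gsr) did not pass over 9 against 4 libraries. Gclc stood at 5353, 8926, 8615 and 6988 untreated, with line 1 lowest of all 22 libraries but 1. It was 11218, 9467 and 11282 after direct CAP for 30 min, 11145, 10708 and 10047 after direct CAP for 24 h, 11348, 10270 and 9997 in indirect CAP day 1 and 8227, 9149 and 8430 in PAM day 1. All direct and indirect day 1 libraries exceeded the untreated ones, and 2 of the 3 PAM day 1 libraries fell among them. The 9 against 4 difference was 0.43 ± 0.13 (adjusted p = 0.0197), or 0.28 without untreated line 1 (adjusted p = 0.0903). From day 2 it was 10027, 10349 and 5965 in indirect CAP and 11846, 11490 and 4915 in PAM, with line 4 low in both.

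Gclm stood at 2630, 2618, 2626 and 2216 untreated, with line 4 apart from the other lines. It was 2847, 2971 and 2424 after direct CAP for 30 min, 2701, 2960 and 2350 after direct CAP for 24 h, 2611, 2942 and 2243 in indirect CAP day 1, 2293, 2831 and 2078 in PAM day 1, 2069, 2583 and 1676 in indirect CAP day 2 and 2321, 2719 and 1647 in PAM day 2. The groups overlapped (0.01, adjusted p = 0.938), and line 2 was the highest and line 4 the lowest in each treated group. Gsr was at 8867, 9438, 9515 and 8762 untreated, at 9255, 8565 and 9056 after direct CAP for 30 min, at 9207, 8904 and 10181 after direct CAP for 24 h and at 9299, 8669 and 9684 in indirect CAP day 1. It was 7369, 7374 and 8102 in PAM day 1, below every untreated library (−0.26, adjusted p = 0.0252). It was 7862, 10041 and 8001 in indirect CAP day 2 and 9336, 9642 and 6293 in PAM day 2, where it overlapped the untreated range. Gss ranged from 2743 to 4266 untreated and from 4378 to 5516 over the 3 day 1 groups with 24 h of exposure (0.40 ± 0.10, adjusted p = 0.0105), and 15.4% of its exons overlap other genes.

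In the thioredoxin system the cytosolic reductase rose while thioredoxin itself was lower in 4 of the 6 treated groups. Txnrd1, the NADPH-dependent enzyme that reduces thioredoxin, stood at 8269, 9293, 10079 and 8894 untreated. It was 10757, 10112 and 11360 after direct CAP for 30 min, 11435, 11755 and 11488 after direct CAP for 24 h, 11158, 11612 and 11600 in indirect CAP day 1 and 11360, 12120 and 11217 in PAM day 1. The 9 libraries exposed for 24 h from day 1 lay in a narrow band of 11158 to 12120 above all untreated libraries (0.34 ± 0.06, adjusted p = 0.00167). From day 2 it spread to 8693, 11788 and 9421 in indirect CAP and 10914, 14098 and 8347 in PAM, neither of which passed. Txn1, cytosolic thioredoxin, stood at 7963, 9459, 9316 and 9389 untreated, at 8169, 7721 and 6660 after direct CAP for 30 min and at 8220, 7755 and 10079 after direct CAP for 24 h. It was 7377, 7462 and 6539 in indirect CAP day 1, 6378, 7771 and 6728 in PAM day 1, 6906, 5665 and 5437 in indirect CAP day 2 and 6630, 5619 and 3961 in PAM day 2. In these last 4 groups each library was below each untreated one, and each group passed an adjusted p of 0.05 (−0.34, −0.38, −0.59 and −0.77). The 9 against 4 difference of −0.26 did not (adjusted p = 0.0755).

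Mitochondrial thioredoxin reductase, Txnrd2, fell from a range of 616 to 687 to one of 438 to 606 (−0.29, adjusted p = 0.0184), and mitochondrial thioredoxin, Txn2, gave −0.16 (adjusted p = 0.383). Txnip, the protein that binds and inhibits reduced thioredoxin, was the member with the largest positive difference after direct CAP for 30 min, 7622 to 8368 against 4141 to 6058 untreated, with no overlap (0.67, adjusted p = 0.10). With exposure from day 2 it fell, by 0.43 in indirect CAP (adjusted p = 0.0247) and by 0.62 in PAM (adjusted p = 0.00812). Of the Txnip exons, 19.4% overlap a gene on the opposite strand.

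Among the 5 genes of NADPH supply Me1 had the largest difference and G6pdx also rose, and the 3 further genes of the pentose phosphate pathway did not pass over 9 against 4 libraries. Me1, cytosolic malic enzyme, lies at chr9:86581371-86695953 on the minus strand (GRCm38). It stood at 2221, 2166, 1956 and 1948 untreated, at 2567, 2704 and 2937 after direct CAP for 30 min, at 3451, 3893 and 3505 after direct CAP for 24 h and at 3124, 3661 and 3444 in indirect CAP day 1. It was 4639, 4444 and 4104 in PAM day 1, 12243, 5368 and 5133 in indirect CAP day 2 and 7124, 5241 and 14054 in PAM day 2. Every treated library, of all 6 groups, was above every untreated one, and 1 library in each of the day 2 groups was far above its group, line 1 in indirect CAP and line 4 in PAM. The difference was 0.87 ± 0.10 over the 9 libraries from day 1 (adjusted p = 7.67e-05), and by group it was past the threshold in PAM day 1 (1.08 ± 0.08, adjusted p = 0.000103), indirect CAP day 2 (1.75 ± 0.27, adjusted p = 0.00148) and PAM day 2 (1.96 ± 0.29, adjusted p = 0.00128). Leaving out any 1 library kept Me1 past the threshold in both day 2 groups, with differences of at least 1.34 and 1.56. Of its 100-base stretches, 12.3% also occur in other genes. G6pdx, glucose-6-phosphate dehydrogenase, rose from 3089 to 3438 untreated to 3568 to 5616 (0.31, adjusted p = 0.0332). Pgd, Tkt and Taldo1, which act further along that pathway, gave −0.15, −0.05 and −0.11 with no passing test (Tkt 0.04 under median ratio scaling). In the day 2 groups transketolase, Tkt, fell by 0.42 in indirect CAP (adjusted p = 0.00313) and by 0.47 in PAM (adjusted p = 0.00733).

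**Figure D2:**
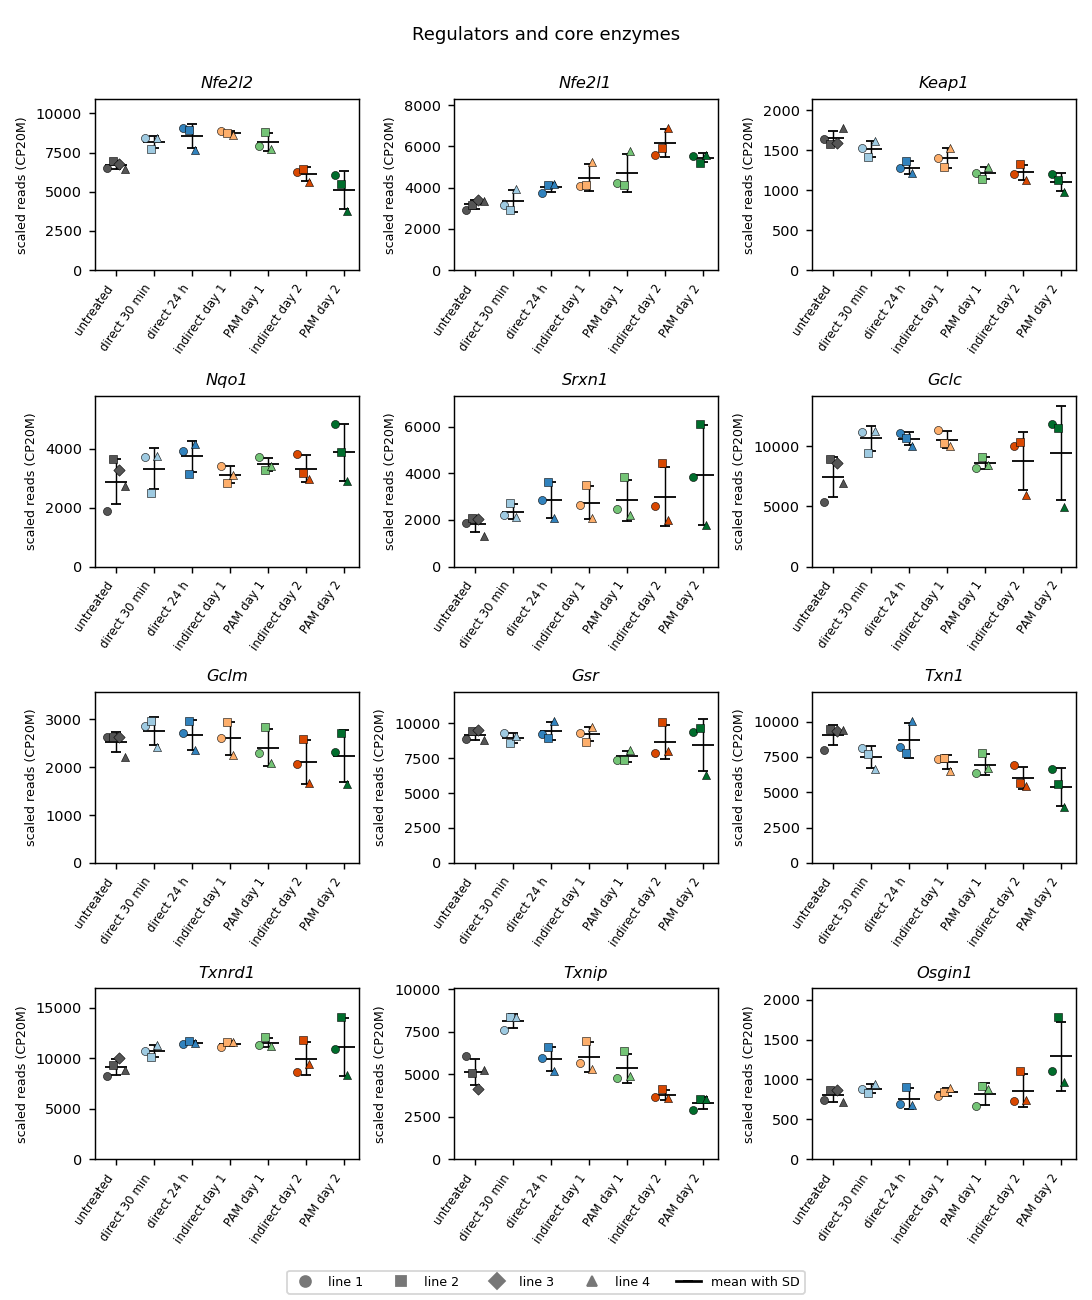
Scaled counts per library (vertical axis, from 0) of the regulators and core enzymes in the untreated and the 6 treated groups, with 1 point per organoid line and bars for the mean with its SD. Nfe2l2 is above the untreated libraries in the direct and day 1 groups and not in the day 2 groups, and Txnrd1 forms a narrow band in the 3 groups exposed for 24 h from day 1.

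The 12 glutathione transferases went in both directions. So did all genes tested, of which 33.5% passed an adjusted p of 0.05 over 9 against 4 libraries (2738 higher, 3449 lower). Over 9 against 4 libraries 4 rose at an adjusted p under 0.05 (Gstk1, Gsta1, Gsta4, Gsto1), 2 fell (Mgst1, Gstm2) and 6 did not pass, among them Gstm1, which had the highest untreated level per kilobase of the 40 genes (10400 ± 1782 scaled counts per kilobase, SD, n = 4). Gstk1, the kappa-class transferase of mitochondria and peroxisomes, lies at chr6:42245935-42250447 on the plus strand. It stood at 263, 432, 728 and 439 untreated and at 403, 404 and 788 after direct CAP for 30 min, where it was not separated. After 24 h it was 888, 991 and 1522 with direct CAP, 612, 774 and 870 in indirect CAP day 1, 1029, 1362 and 1395 in PAM day 1, 867, 862 and 986 in indirect CAP day 2 and 881, 778 and 937 in PAM day 2. A single library, line 1 of indirect CAP day 1, was within the untreated range. The 9 against 4 difference was 1.21 ± 0.26 (adjusted p = 0.00331), and PAM day 1 alone gave 1.52 ± 0.30 (adjusted p = 0.00447). With organoid line as a block Gstk1 also passed the threshold after direct CAP for 24 h (1.58), in indirect CAP day 1 (1.01), in indirect CAP day 2 (1.29) and in PAM day 2 (1.23), with adjusted p of 0.00757 or less. Leaving out untreated line 1, 2 or 4 ended the 9 against 4 call (lowest difference 0.96, highest adjusted p 0.0166), and leaving out untreated line 2 or 4 or treated line 2 or 4 ended that of PAM day 1.

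Mgst1, a membrane-bound transferase and peroxidase of the endoplasmic reticulum and outer mitochondrial membrane, lies at chr6:138140316-138156755 on the plus strand. It stood at 5208, 6802, 5886 and 4932 untreated, at 4692, 4608 and 3018 after direct CAP for 30 min, at 3421, 3626 and 3503 after direct CAP for 24 h and at 3341, 3655 and 2604 in indirect CAP day 1. It was 1180, 3071 and 2286 in PAM day 1, 1925, 2515 and 1622 in indirect CAP day 2 and 2446, 2901 and 708 in PAM day 2. All 18 treated libraries lay below all untreated ones. The log2 fold change was −1.0 ± 0.24 over 9 libraries (adjusted p = 0.0068), −1.48 in PAM day 1 (adjusted p = 0.00418) and −1.51 in indirect CAP day 2 (adjusted p = 0.000252), while PAM day 2 at −1.72 did not pass (adjusted p = 0.0128). With organoid line as a block the 9 against 4 difference was −0.98 and no longer passed (adjusted p = 0.014). The 9 against 4 call was also lost on leaving out any untreated line, any PAM day 1 line or line 4 of indirect CAP day 1 (−1.07 to −0.85 over all such fits), and that of PAM day 1 without untreated line 2 or 3 or treated line 4, whereas that of indirect CAP day 2 held without any 1 library.

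Gstm2, a mu-class transferase at chr3:107981702-107986453 on the minus strand, stood at 1161, 999, 908 and 760 untreated. It was 1017, 1030 and 577 after direct CAP for 30 min, 777, 856 and 471 after direct CAP for 24 h, 757, 745 and 535 in indirect CAP day 1, 325, 461 and 323 in PAM day 1, 380, 612 and 252 in indirect CAP day 2 and 397, 541 and 110 in PAM day 2. The PAM and day 2 libraries were below the untreated ones without overlap, and line 4 was the lowest line in each treated group. It passed the threshold in PAM day 1 (−1.37, adjusted p = 0.000684) and indirect CAP day 2 (−1.28, adjusted p = 0.00628). Without line 4 Gstm2 also passed in PAM day 2, but in indirect CAP day 2 it no longer did, nor there without treated line 1 or untreated line 1, 2 or 3 (−1.61 to −0.97).

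Of the alpha and omega classes, Gsta1 rose from 876 to 1466 untreated to 1862 to 2925 (0.88 ± 0.14, adjusted p = 0.000543), Gsta4, which conjugates the lipid peroxidation product 4-hydroxynonenal, from 8434 to 13566 to 15766 to 25057 (0.80 ± 0.15, adjusted p = 0.00161) and Gsto1 from 8796 to 12491 to 12656 to 19706 (0.50 ± 0.12, adjusted p = 0.00629). Of the 100-base stretches of Gsta1, 80.6% also occur in other genes, so its value is uncertain. In the blocked fit Gsta1 passed the threshold in PAM day 1 (1.07, adjusted p = 0.00473). Gsta3 fell in 3 of the 6 groups at an adjusted p under 0.05 (PAM day 1, indirect CAP day 2 and PAM day 2, with differences of −0.67, −0.74 and −1.04). Mgst3 fell in both day 2 groups, by 0.81 in indirect CAP and 0.83 in PAM. Gstm1 was lower in PAM day 1 (−0.67, adjusted p = 0.0284), and Gstp1, Gstt1 and Mgst2 passed in no comparison with untreated organoids.

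Of the 3 transporters that export glutathione conjugates Abcc1 and Abcc3 rose. Abcc1 (MRP1), at chr16:14361558-14475737 on the plus strand, stood at 1263, 1101, 1403 and 1253 untreated and had the lowest untreated level per kilobase of the 40 genes. It was 1618, 1557 and 1843 after direct CAP for 30 min, 2259, 1846 and 1894 after direct CAP for 24 h, 1981, 1891 and 2376 in indirect CAP day 1, 3027, 2128 and 2468 in PAM day 1, 2556, 2343 and 2741 in indirect CAP day 2 and 2234, 2264 and 3115 in PAM day 2. All 18 treated libraries were above all 4 untreated ones. The difference was 0.80 ± 0.12 over 9 libraries (adjusted p = 0.000464) and just past a doubling in PAM day 1 (1.01), indirect CAP day 2 (1.02) and PAM day 2 (1.0). Each of the 3 calls was lost without untreated line 2 and without 1 treated library (line 1 in PAM day 1, line 4 in the day 2 groups), with adjusted p of 0.00466 or less in every such fit.

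Abcc3 (MRP3), a basolateral exporter at chr11:94343295-94392997 on the minus strand, stood at 6196, 8125, 8008 and 8139 untreated. It was 10747, 8618 and 15710 after direct CAP for 30 min, 15802, 14232 and 13887 after direct CAP for 24 h, 12799, 12320 and 17649 in indirect CAP day 1, 21708, 17761 and 19162 in PAM day 1, 13331, 11484 and 16386 in indirect CAP day 2 and 14100, 11262 and 17147 in PAM day 2. Here too each treated library exceeded each untreated one, PAM day 1 being the highest group. The rise was 1.07 ± 0.14 over 9 libraries (adjusted p = 0.000247) and 1.36 ± 0.12 in PAM day 1 (adjusted p = 0.000198). Without untreated line 1 the former was 0.97, under the fold limit. Abcc2 (MRP2), the apical exporter, ranged from 2918 to 5934 untreated and from 3430 to 11580 treated, was highest in line 4 in each treated group, and did not pass without a line term (0.60 ± 0.29, adjusted p = 0.126; adjusted p = 0.0022 with organoid line as a block).

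All 3 genes grouped under thiol metabolism rose past the threshold over 9 against 4 libraries, where 6.34% of all genes passed. The study itself names all 3 from these libraries, so this count is no independent evidence of a direction. Ethe1, the mitochondrial persulfide dioxygenase that consumes glutathione persulfide, lies at chr7:24587543-24608925 on the plus strand. It stood at 946, 1344, 990 and 1069 untreated, at 1385, 1110 and 1638 after direct CAP for 30 min, at 2581, 1880 and 2630 after direct CAP for 24 h and at 1697, 1589 and 1841 in indirect CAP day 1. It was 3274, 2417 and 2415 in PAM day 1, 3098, 2295 and 2175 in indirect CAP day 2 and 3011, 2476 and 2800 in PAM day 2. Every library exposed for 24 h was above every untreated library. The rise was 1.03 ± 0.17 over 9 libraries (adjusted p = 0.000877), 1.12 after direct CAP for 24 h (adjusted p = 0.00485), 1.31 in PAM day 1, 1.21 in indirect CAP day 2 and 1.35 in PAM day 2. With organoid line as a block it came to 0.99 (adjusted p = 0.00409), under the fold limit, and the call after direct CAP for 24 h was lost (adjusted p = 0.018). That call was also lost on leaving out any 1 library other than treated line 2 (adjusted p up to 0.0228), and the 9 against 4 difference fell under the fold limit, to 0.96 at the lowest, without untreated line 1 or 3, direct CAP line 4 or PAM line 1.

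Ggh, gamma-glutamyl hydrolase, a lysosomal enzyme that trims polyglutamate tails from folates, lies at chr4:20042052-20066750 on the plus strand. It stood at 151, 152, 213 and 189 untreated and at 120, 210 and 219 after direct CAP for 30 min, so the short exposure left it within or beside the untreated range (0.02, adjusted p = 0.97). It was 393, 395 and 598 after direct CAP for 24 h, 227, 421 and 315 in indirect CAP day 1, 282, 582 and 454 in PAM day 1, 308, 593 and 495 in indirect CAP day 2 and 367, 807 and 456 in PAM day 2. The 15 libraries exposed for 24 h were all above the untreated ones, with line 1 the lowest in each group. The rise was 1.16 ± 0.22 over 9 libraries (adjusted p = 0.00197), 1.37 after direct CAP for 24 h (adjusted p = 0.00499), 1.27 in PAM day 1, 1.36 in indirect CAP day 2 and 1.55 in PAM day 2. Leaving out any 1 library kept the 9 against 4 and PAM day 2 calls, while that of direct CAP for 24 h was lost in 5 of 7 such fits (without untreated line 1, 2 or 4 or treated line 1 or 4; adjusted p up to 0.019), that of PAM day 1 in 5 (without untreated line 1, 2 or 4 or treated line 2 or 4; up to 0.0199) and that of indirect CAP day 2 without treated line 4 (0.01).

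Vnn1, vanin 1, a pantetheinase that releases cysteamine, lies at chr10:23894688-23905343 on the plus strand. It stood at 163, 337, 585 and 603 untreated, a wide range, and at 357, 279 and 840 after direct CAP for 30 min. It was 778, 919 and 1347 after direct CAP for 24 h, 593, 689 and 1182 in indirect CAP day 1, 852, 1295 and 1164 in PAM day 1, 566, 1015 and 1341 in indirect CAP day 2 and 650, 1241 and 1354 in PAM day 2. Line 1 of both indirect groups lay within the untreated range and the other libraries exposed for 24 h above it. The rise was 1.34 ± 0.31 over 9 libraries (adjusted p = 0.00516), 0.94 without untreated line 1 (adjusted p = 0.0185) and 1.29 without untreated line 2 (adjusted p = 0.0191). In single groups it passed the threshold only in the fit with organoid line as a block, in direct CAP for 24 h, PAM day 1 and both day 2 groups, with differences of 1.62, 1.76, 1.51 and 1.68.

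**Figure D3:**
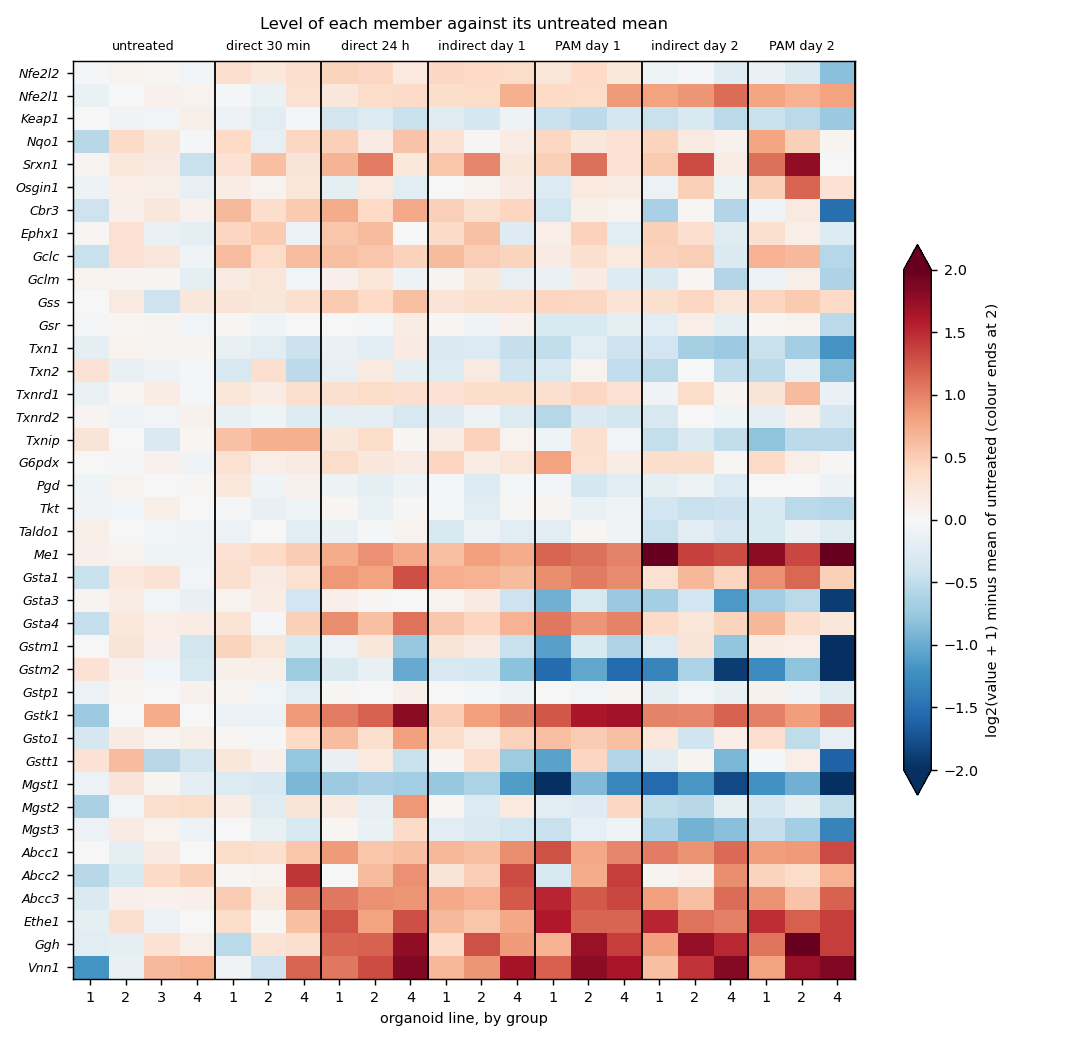
Log2 difference of each of the 40 genes (rows, by role) from the mean of the untreated libraries, in each of the 22 libraries (columns, by group and line). Columns of PAM day 2 line 4 and untreated line 1 hold many of the lowest values, and Ethe1, Ggh, Abcc1 and Abcc3 are above the untreated mean in every library exposed for 24 h.

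Each route and duration was then compared with untreated organoids on its own. After direct CAP for 30 min no member passed either rule, where 0.00564% of all genes did under each, and 12 members (30%) had an unadjusted p under 0.05, against 24.9% of all genes. The longer direct exposure, 24 h, took 2 members (5%; Ethe1 and Ggh) past the threshold, against 2.17% of all genes, and 15 (37.5%; 13 higher, 2 lower) past an adjusted p of 0.05, against 17.3%. In the blocked fit the 2 became 3 (7.5%; Ggh, Gstk1 and Vnn1), against 2.02% of all genes. Indirect CAP day 1 took none past the threshold (1.31% of all genes) and 12 (30%; 10 higher, 2 lower) past an adjusted p of 0.05 (20.6%), with 24 (60%) at an unadjusted p under 0.05, where 38.6% of all genes were. With the block 1 member (2.5%) passed the threshold there (Gstk1, 1.01, adjusted p = 0.00757), against 1.81% of all genes. PAM day 1 had the largest count of these groups, 8 members (20%; 6 higher, 2 lower) past the threshold against 10.2% of all genes and 22 (55%) past an adjusted p of 0.05 against 41.8%.

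With exposure from day 2 the members' shares were near or below those of all genes under most rules without a line term. With organoid line as a block indirect CAP day 2 took 8 members (20%) past the threshold, against 10.6% of all genes. Indirect CAP day 2 took 6 members (15%; 4 higher, 2 lower) past the threshold against 11.9% of all genes, and 16 (40%; 7 higher, 9 lower) past an adjusted p of 0.05 against 43.8%. PAM day 2 took 4 members (10%, all higher) past the threshold against 17.3% of all genes, and 20 (50%; 11 higher, 9 lower) past an adjusted p of 0.05 against 47.6%. The PAM day 2 count moved with several choices. Line 4 of that group was the lowest of all 22 libraries for 17 of the 40 genes, a count not made over all genes. Without that library 7 members passed (Srxn1, Me1, Gsta1, Gstm2, Mgst1, Ethe1 and Ggh). In PAM day 2 there were also 7 without line 2 and 7 in a fit of all 7 groups. With organoid line as a block there were 6 (15%, against 14.9% of all genes). Without line 4, indirect CAP day 2 kept 3 members (Me1, Mgst1 and Ethe1) and PAM day 1 kept 5 (Me1, Gstm2, Abcc1, Abcc3 and Ethe1). Over all genes the number past the threshold in PAM day 1 fell as well, from 1775 to 1134. The other refits without a block are given without the share of all genes and show only how the calls moved.

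**Figure D4:**
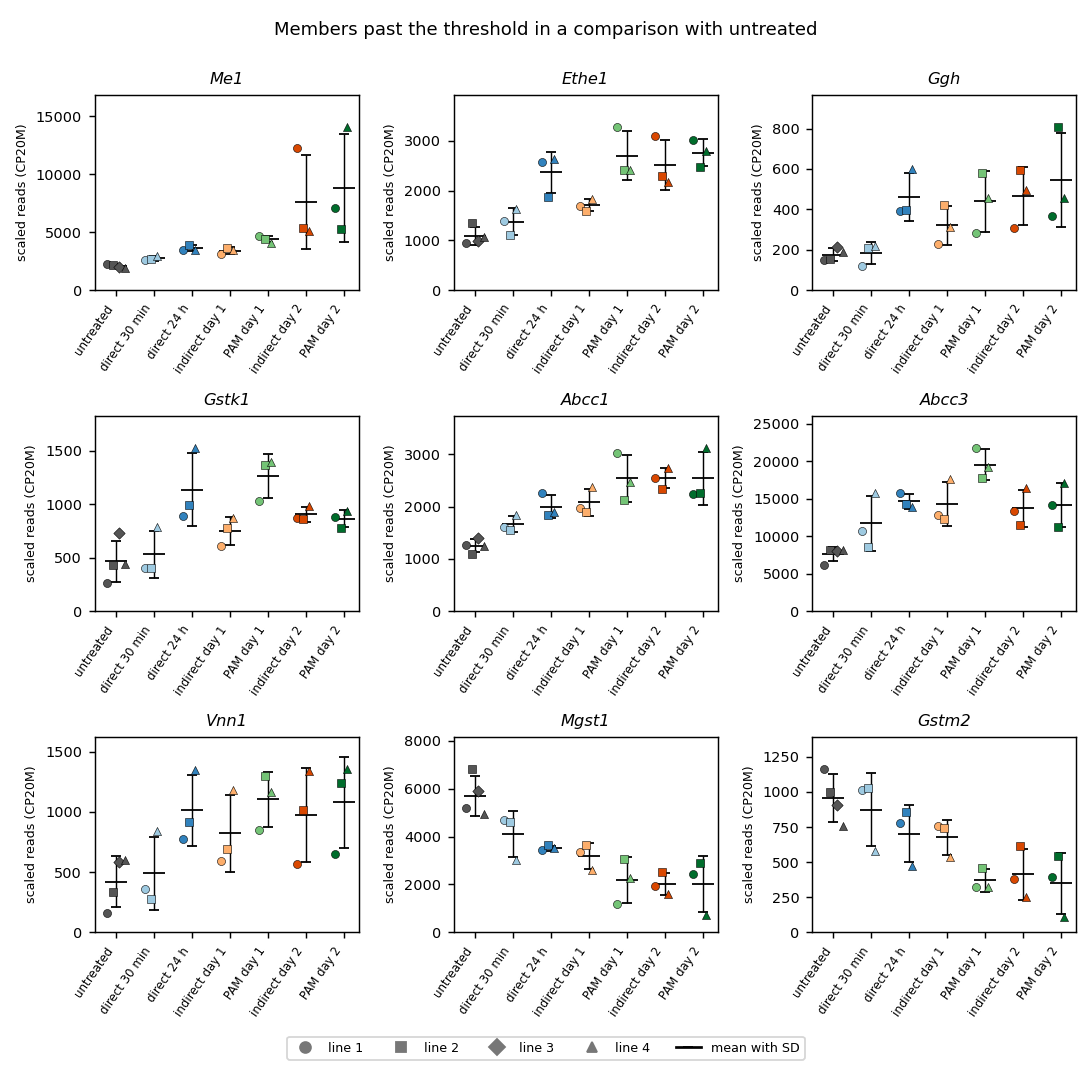
Scaled counts in each library (vertical axis, from 0) of the 9 members that passed the threshold in a comparison with untreated organoids, by group, with 1 point per organoid line and bars for the mean with its SD. The untreated points of Ethe1 and Ggh lie below every point of the 5 groups exposed for 24 h.

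Differences between treatments were sought by direct tests over the same 3 lines. The direct groups differed in exposure and also in time in fresh medium before the endpoint. Between direct CAP for 24 h and for 30 min no member passed, as no gene did (0%), and 9 members (22.5%) had an unadjusted p under 0.05, a share near the 21.4% of all genes. With organoid line as a block 2 members (5%, against 1.13% of all genes) passed there, both higher at 24 h, Gstk1 (1.13 ± 0.12, adjusted p = 0.00309) and Ggh (1.35 ± 0.18, adjusted p = 0.00605). Indirect CAP day 1 and PAM day 1 against direct CAP for 24 h gave no member past the threshold and 0% of all genes, with 3 (7.5%) and 8 (20%) members at an unadjusted p under 0.05, against 6.95% and 10.4% of all genes. A test that misses its threshold does not show that the 3 routes acted alike.

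Between day 2 and day 1, indirect CAP gave no member past the threshold (0.0111% of all genes) and 3 past an adjusted p of 0.05 (7.5% against 3.37%), all lower at day 2. These were Nfe2l2 (−0.52, adjusted p = 0.0327), Txnip (−0.65, adjusted p = 0.0415) and Mgst3 (−0.51, adjusted p = 0.0474). With the block, where 3.46% of all genes passed, Me1 passed as higher at day 2 (1.03 ± 0.22, adjusted p = 0.00871), although 1 library, line 1, stood at 12243 there. PAM gave no member and no gene past either rule (0% and 0%), and 10 members (25%) had an unadjusted p under 0.05, against 26.8% of all genes. Nfe2l2 and Txnip again had negative differences, −0.71 (adjusted p = 0.0807) and −0.68 (adjusted p = 0.0664). Besides the start day, day 2 and day 1 groups differed in time in fresh medium and in age of the treated medium.

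The order of the organoid lines was also compared across the treated groups. In 7 of the 40 genes (17.5%) the same line was the highest in all 6 treated groups, against 13.2% of 19370 genes, a share near the background. Line 2 held that place for Srxn1, Gclm, Txn2 and Txnrd2, and line 4 for Nfe2l1, Gstk1 and Abcc2, the apical exporter whose line 4 values ran from 6959 to 11580. Among untreated lines 1, 2 and 4 the same line was the highest for Srxn1, Nfe2l1, Gstk1 and Abcc2 but not for Gclm, Txn2 or Txnrd2. That order rests on the labels of untreated lines 1 and 2, which their residuals did not bear out.

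**Figure D5:**
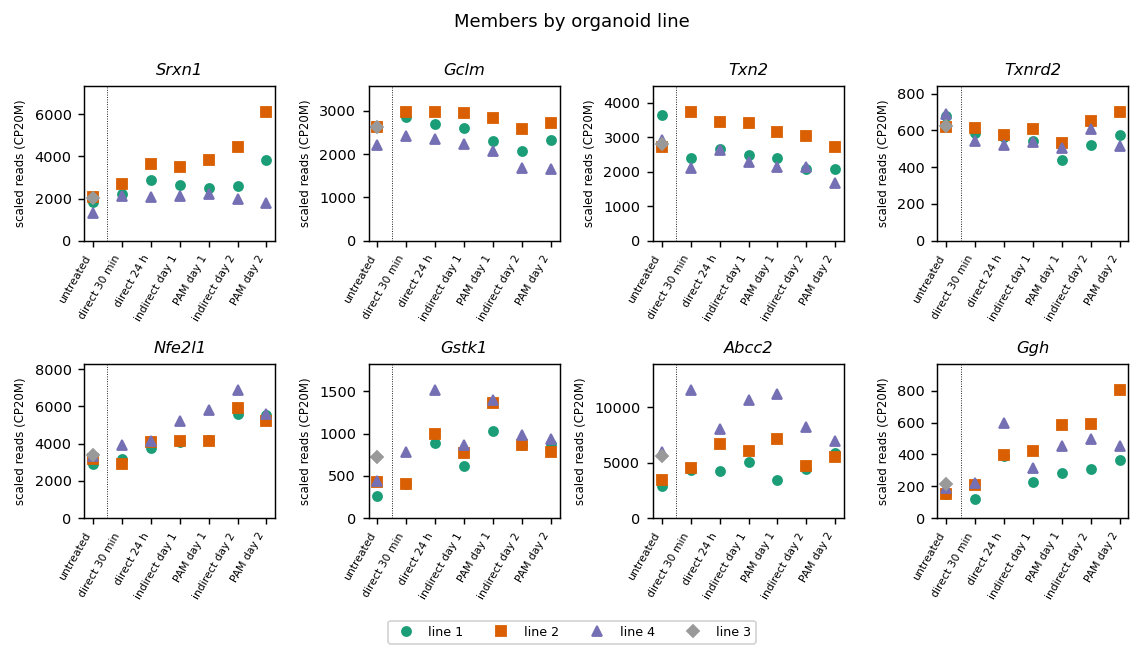
Scaled counts (vertical axis, from 0) of 8 genes by group, with organoid lines 1, 2, 3 and 4 marked. Srxn1 and Gclm are highest in line 2 and Nfe2l1, Gstk1 and Abcc2 in line 4 of each treated group.

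Of the 10 genes with the element core near the start, 5 rose at an adjusted p under 0.05 over 9 against 4 libraries (Nfe2l2, Srxn1, Txnrd1, G6pdx and Me1), 1 fell (Mgst1) and 4 did not pass (Gclm, Pgd, Gsta3 and Abcc2). Among the 23 genes whose window held no match 6 rose and 3 fell, and among the 7 without a window 6 rose. Of all genes 33.5% passed this rule in either direction. These counts say nothing about the element, since the share was highest among the genes that were not searched.

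Other genes of the same pathways, from lists chosen with earlier results of these data known, were counted in the same 9 against 4 fit. The study itself names Slc7a11, Hmox1 and Chac1 of these lists as raised in these libraries. The shares below are therefore no independent evidence of a direction. Of 7 partners and repressors of NRF2 none passed the threshold, while 3 rose and 1 fell at an adjusted p under 0.05 (57.1%, against 33.5% of all genes). Of 18 further NRF2 target genes 4 passed (22.2%, against 6.34% of all genes), all higher, with a median log2 fold change of 0.32 over the list. At an adjusted p under 0.05 alone, 9 rose and 3 fell (66.7%, against 33.5%). Among the 4 past the threshold the largest was Slc7a11, the cystine importer that supplies glutathione synthesis (2.39 ± 0.12, adjusted p = 1.18e-07). Next came Hmox1, heme oxygenase 1 (1.73 ± 0.25, adjusted p = 0.000353), and Akr1b8, an aldo-keto reductase (1.38 ± 0.14, adjusted p = 3.42e-05). Aldh3a1 had a larger difference (2.64 ± 0.76) from a low untreated mean of 24 scaled counts, but missed the threshold (adjusted p = 0.0161). The difference of Slc7a11 exceeded that of each of the 40 genes, of which Vnn1 had the largest (1.34). Of 31 further glutathione genes 2 passed, Chac1, which degrades glutathione (2.05 ± 0.22, adjusted p = 5.00e-05), and Gsto2, an omega-class transferase at low level (1.35 ± 0.23, adjusted p = 0.000916), with a median of −0.12. That share, 6.45%, is near the 6.34% of all genes. At an adjusted p under 0.05 4 genes of the list rose and 6 fell (32.3%). Of 11 further genes of NADPH supply none passed the threshold, and 2 rose and 3 fell at an adjusted p under 0.05 (45.5%, against 33.5% of all genes).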

How the data were processed

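RNA from 22 duodenal organoid libraries was sequenced as paired-end reads. The values in the deposited table are a score rather than raw counts. Per the study's methods and the submitters' processing notes, the authors trimmed reads (Trimmomatic 0.36), aligned them to GRCm38 (STAR 2.5.3a), counted them per gene of Ensembl release 90 (HTSeq 0.9.1) and scaled the counts to a fixed library total. The values are whole numbers and were not divided by gene length, although the study's unit (CP20M) is defined per kilobase.

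The table holds no raw counts, so limma 3.58.1 in R 4.3.3 was used in place of the study's count test. Its trended moderated test was run on log2(value + 1) over genes at 10 or more in at least 3 libraries of the fit, with Benjamini-Hochberg adjustment over all genes tested and two-sided p-values. Only the groups compared entered a fit. Levels per kilobase used the union of each gene's exons. By the labels the replicate numbers pair samples, the same number being the same organoid line and so the same mouse. Residuals of untreated lines 1 and 2 did not bear this out (median correlation 0.13 with their own line, 0.42 with the other's). Blocked fits against untreated organoids rest on this pairing. Residuals of same-line libraries correlated at a median of 0.54 (63 pairs), against −0.31 between lines (144 pairs), and at 0.22 to 0.81 in each of 45 pairs of treated libraries. The study's methods name no line term, so the fit with organoid line as a block is an alternative, beside other scalings, a pseudocount of 10, no filter, wider fits, an adjusted p under 0.05 alone and leaving out each library. In fits without the block where each line enters a group once, p-values measure the spread between these lines. Fits that pooled routes without the block counted libraries of the same line as separate. Their spread therefore also holds differences between routes. Fits with the block set differences between lines aside. The treated groups were not independent of the untreated ones, since lines 1, 2 and 4 recur in each.

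The 40 genes, the marker and pathway lists and the named genes were chosen with earlier results of these data known. All 40 are named. Values in every library were given for members past the threshold in any comparison with untreated organoids. They were also given for Nfe2l2, Keap1, Nqo1, Gclc, Gclm, Gsr, Txn1, Txnrd1 and Srxn1. Of each other pathway list up to 3 genes past the threshold with the largest change were named, and Aldh3a1 besides. Tested on simulated data, the test recovered 100 of 100 genes at each of 2 fold sizes (log2 1.5 and 2) for 9 against 4 libraries over 18490 genes, for 3 against 4 over 17335 and for 3 against 3 over 17668, with 0, 1 and 1 false calls. Smaller changes, which include those of all members over 9 against 4 libraries, were not simulated. The simulated libraries were independent, with no line effect, and the changed genes all stood at 100 or more. Their spread was smaller than that of members such as Gstk1 and Vnn1. Full recovery therefore does not measure how many changes the test finds, or calls falsely, in the real data. Depth was estimated from the spacing of low values, with an error of up to 3.59% in 13 simulated libraries.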

Additional observations from a re-analysis of the deposited data

Results flagged for a closer look

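In 4 genes 1 untreated library stood apart from the other 3 by more than Dixon's critical value. These were Gclm, where line 4 was at 2216 scaled counts, and Txn1 (7963), Gsta4 (8434) and Abcc3 (6196), where line 1 was low. Among 40 genes in a group of 4 libraries some such gaps arise by chance, at a rate of about 5% of groups. The same untreated line 1 was the lowest of all 22 libraries for 11 of the 40 genes, a count not made over all genes.

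Nfe2l2 was above every untreated library in all 3 PAM day 1 libraries and below every one in all 3 PAM day 2 libraries, a difference of 0.68 in the log2 ratio of the group means. The difference was chosen for this pattern, and the fit of PAM day 2 against day 1 gave −0.71 without passing (adjusted p = 0.0807). Between indirect CAP day 2 and day 1 the differences of Nfe2l2 (−0.52), Txnip (−0.65) and Mgst3 (−0.51) passed an adjusted p of 0.05.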

How the results depend on the processing

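Counts of members past the threshold kept within 1.5 times under quantile normalization, a pseudocount of 10 and no filter on low values in all 12 comparisons. With an adjusted p under 0.05 and no minimum fold change they rose to 21 (9 against 4), 15 (direct CAP 24 h), 12 (indirect CAP day 1), 22 (PAM day 1), 16 (indirect CAP day 2), 20 (PAM day 2) and 3 (indirect CAP day 2 against day 1). Median ratio scaling gave 4 after direct CAP for 24 h (Gsta1, Abcc3, Ethe1 and Ggh), and a fit of all 7 groups gave 7 in PAM day 2. Without the untreated libraries of lines 1 and 2, an alternative chosen after seeing the data, counts were 0 (9 against 4), 0 (direct CAP 24 h), 4 (PAM day 1), 2 (indirect CAP day 2) and 0 (PAM day 2). The numbers over all genes fell too, to 148 in 9 against 4 and to 1 in PAM day 2.

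With organoid line as a replicate block, 1 member passed in indirect CAP day 1, 2 in direct CAP 24 h against 30 min and 1 in indirect CAP day 2 against day 1. The block lost Mgst1 and Ethe1 in 9 against 4 and Ethe1 in direct CAP 24 h, and added Gstk1 in 4 groups, Vnn1 in 4 and Gsta1 in PAM day 1. Beyond these and the 3 calls between treatments it changed no other call at the threshold. The blocked calls against untreated organoids pair untreated lines 1 and 2 by labels that their residuals did not bear out.

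Leaving out 1 library gave 1 to 6 members in 9 against 4, 0 to 2 after direct CAP for 24 h, 5 to 9 in PAM day 1, 3 to 6 in indirect CAP day 2 and 3 to 7 in PAM day 2. Some differences near 0 changed sign. Leaving out 1 library moved Osgin1 between −0.045 and 0.051, Gclm between −0.049 and 0.049, Gstp1 between −0.041 and 0.030 and Mgst2 between −0.13 and 0.21. With all 5 groups exposed for 24 h the differences were −0.089 for Gclm, −0.11 for Txnip and −0.10 for Mgst2, and under median ratio scaling 0.018 for Gsr, 0.041 for Tkt and 0.088 for Gstp1. The cause was not tested.

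Median ratio scaling moved the median of all genes by 0.14 in PAM day 1 and 0.15 in PAM day 2, and quantile normalization by 0.12 in PAM day 2. The share of higher genes among those past the threshold went from 57.7% to 68.3% after direct CAP for 24 h, from 47.2% to 62.2% in PAM day 1 and from 39.4% to 51.6% in PAM day 2 under median ratio scaling. Each treated group held 3 lines, and this number limits the precision.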
